A study of Arabidopsis thaliana with 6 samples.

Results

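Alpha-expansins are wall proteins encoded by the EXPA genes. The members described here are the probe sets that the platform annotation assigns to a single gene with a symbol made of EXPA and a number. There were 10 of them among 22810 probe sets: EXPA4, EXPA7, EXPA8, EXPA9, EXPA15, EXPA16, EXPA18, EXPA20, EXPA21 and EXPA24. The family has 26 loci in the list used here. Another 4 loci shared probe sets that name several genes, and 12 loci had no entry in the annotation given; these 16 were not analysed here, so the members may not represent the family.

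The arrays measured RNA of whole Arabidopsis thaliana seedlings (Columbia ecotype). All plants were 10 d old, raised on agar in a cycle of 16 h light and 8 h dark, when they went into liquid medium for 8 h. Samples of the brassinazole group (n = 3) had 1e-07 M 2,4-D, a synthetic auxin, together with brassinazole at 1e-06 M, which inhibits brassinosteroid synthesis. Samples of the auxin group (n = 3) had 1e-07 M 2,4-D alone. Both groups thus carried 2,4-D, and seedlings without it were not analysed here. Per the labels, each RNA batch pooled 3 seedlings. The titles call the samples biological replicates, but the labels do not say whether each had a pool of its own. Without that, the p-values below refer to the spread among these 6 samples, and that spread may be technical.

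Expansins loosen the plant cell wall without cutting its polymers: they weaken the contacts between cellulose and xyloglucan, most strongly in acid walls, so that turgor can stretch the cell. Auxin acidifies the wall, and both auxin and brassinosteroids raise transcripts of several alpha-expansins in growing tissue. EXPA7 and EXPA18 are the root hair members, made in the hair cells of the root epidermis as a hair emerges and grows. EXPA8 is one of the alpha-expansins known to be induced by brassinosteroid, and it serves here with EXPA4 as a growth member outside root hairs. The question put to the arrays was which of these genes differ in auxin-treated seedlings when brassinosteroid synthesis is inhibited.

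The values are deposited signals on a linear scale, 1 per probe set and array, scaled to a trimmed mean of 499.8 on each array. A probe set's signal depends on its own probes, so the signal of one gene is not set against that of another below. Changes are brassinazole minus auxin on the scale log2(signal + 16), tested with limma over 17059 probe sets with Benjamini-Hochberg adjustment, and a change was called at an adjusted p under 0.05. Probe sets were tested where their mean level lay above the 25th percentile, equal to a signal of 34.2. Of the 10 members, 8 were tested. EXPA21 and EXPA24 lay below that level.

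The arrays were alike, with Spearman correlations across probe sets of 0.985 to 0.989 within the brassinazole group, 0.988 to 0.989 within the auxin group and 0.981 to 0.985 between the groups. Brassinazole 3 stood apart from brassinazole 1 and 2 on the second principal component (-19.6 against 13.3 and 10.02), and the 25S rRNA control was at 981 on auxin 1 and at 174 to 215 on the other 5 arrays. The 3′ to 5′ ratio of a control transcript is a sign of RNA integrity. In one set of controls it was 18.8 to 21.1 with brassinazole and 12.3 to 17.3 with 2,4-D alone for actin, 2.59 to 3.00 with brassinazole and 3.14 to 3.54 with 2,4-D alone for ubiquitin, and overlapped for GAPDH (1.38 to 1.69 and 1.26 to 1.41). In the other set the groups overlapped for all 3 transcripts. The 5S rRNA control was at 230.0 to 284 with brassinazole and 134 to 174 with 2,4-D alone. The part of these controls in the results was not tested. RCA, a chloroplast protein of green tissue, had a mean signal of 26083 ± 3053 with brassinazole and 25002 ± 666 with 2,4-D alone (SD, n = 3 each). PYK10, a root beta-glucosidase, was at 15908 ± 1430 with brassinazole and 15032 ± 2088 with 2,4-D alone. Both markers thus had signal in both groups. Only 1 of the 6 shoot markers and 1 of the 5 root markers listed had a probe set of its own. The share of each organ in the RNA was therefore not measured. None of the 8 root hair marker genes listed had a probe set of its own in the annotation, so the amount of root hair cells was not measured. In whole seedlings, fewer cells of a type and less RNA per cell cannot be told apart.

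**Figure D1:**
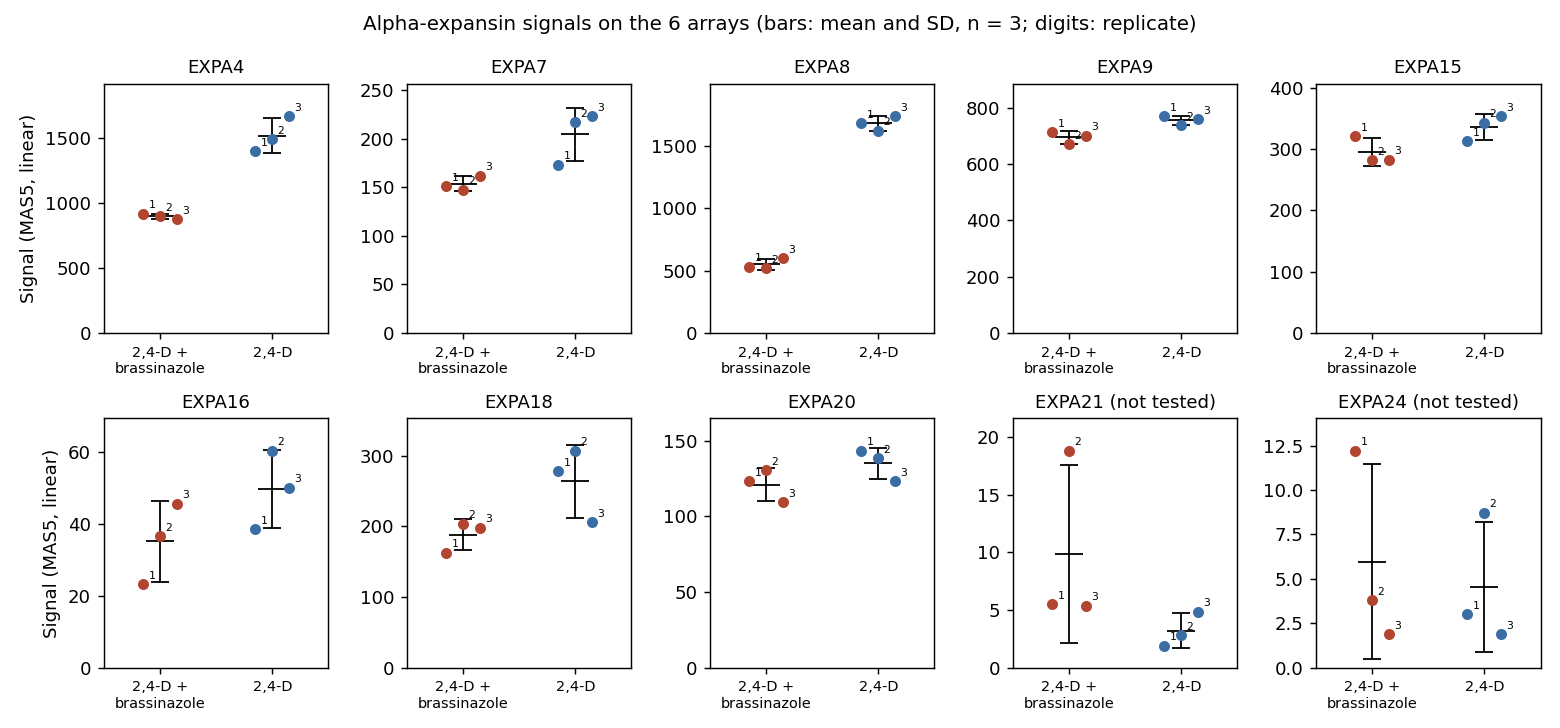
Signals of the 10 alpha-expansins (y axis, MAS5 signal on a linear scale from 0, a scale of its own in each panel) on the 3 arrays with 2,4-D plus brassinazole (red) and the 3 with 2,4-D alone (blue); bars are the mean and SD, digits the replicate. EXPA8 and EXPA4 show the widest gaps between the groups, EXPA7 and EXPA18 narrow ones, and EXPA21 and EXPA24 stay under 20.

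Of the members taken here as growth members, the mean signal of EXPA8 fell by 67.2% and that of EXPA4 fell by 40.9% in seedlings given brassinazole. Both were picked with their changes known, so they do not stand for all members other than EXPA7 and EXPA18. EXPA9, EXPA15, EXPA16 and EXPA20, described below, had log2 changes of -0.37 to -0.12 and were not called. EXPA8 had signals of 532, 519 and 601 with brassinazole, against 1680, 1620 and 1738 with 2,4-D alone. The highest brassinazole array was thus far below the lowest auxin array. The means were 551 ± 44.3 with brassinazole and 1679 ± 59.0 with 2,4-D alone (SD, n = 3 each). The log2 change was -1.58 ± 0.086 (SE), with a limma adjusted p of 1.70e-07. The 95% interval of the fall ran from 2.64-fold to 3.41-fold on the scale with the pseudocount. EXPA8 had the 9th most negative change of the 17059 probe sets tested.

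EXPA4 had signals of 915, 896 and 874 with brassinazole, against 1396, 1486 and 1664 with 2,4-D alone. The 3 brassinazole arrays lay close together (coefficient of variation 2.31%) and below all auxin arrays, which varied more (9.0%). The log2 change was -0.75 ± 0.086 (SE), with a limma adjusted p of 0.000121. The 95% interval of the fall, 1.47-fold to 1.91-fold, did not reach that of EXPA8. EXPA4 ranked 149th among the changes.

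The root hair members had lower mean signals with brassinazole, but neither passed the test. EXPA7 had signals of 151, 147 and 162 with brassinazole, against 173, 217 and 223 with 2,4-D alone. The groups did not overlap, and auxin 1 came nearest to the brassinazole arrays. The means were 154 ± 7.65 with brassinazole and 205 ± 27.2 with 2,4-D alone (SD, n = 3 each). The log2 change was -0.37 ± 0.126 (SE), with a limma adjusted p of 0.0916 and an unadjusted p of 0.0103. Its 95% interval covers falls of 1.07-fold to 1.56-fold.

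EXPA18 had signals of 163, 204 and 198 with brassinazole, against 278, 307 and 206 with 2,4-D alone. Brassinazole 2 (203.7) lay just below auxin 3 (206.2), so the groups were separated by a small gap only. The means were 188 ± 22.2 with brassinazole and 264 ± 51.9 with 2,4-D alone (SD, n = 3 each). The log2 change was -0.44 ± 0.144 (SE), with a limma adjusted p of 0.0806 and an unadjusted p of 0.00816. Its 95% interval covers falls of 1.10-fold to 1.68-fold. Without auxin 3 the change was -0.60 with an adjusted p of 0.0238, so that the call for EXPA18 turned on 1 array.

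Within the auxin group the root hair members did not follow each other. Auxin 3 held the highest EXPA7 signal of the 3 arrays and the lowest EXPA18 signal. Within the brassinazole group, EXPA7 was highest on brassinazole 3 and EXPA18 on brassinazole 2. The coefficient of variation of EXPA7 was 4.98% with brassinazole and 13.3% with 2,4-D alone, and that of EXPA18 was 11.8% with brassinazole and 19.7% with 2,4-D alone, so the auxin arrays were the more scattered for both. Sensitivity at the signal level of EXPA7 was limited. Among the 1000 probe sets nearest in level to EXPA7, 37 were called lower, and the smallest such fall was -0.41 on the log2 scale, a larger change than that of EXPA7. Near EXPA18, 47 of 1000 were called lower and the smallest such fall was -0.38, a smaller change than that of EXPA18, whose spread was wider.

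**Figure D2:**
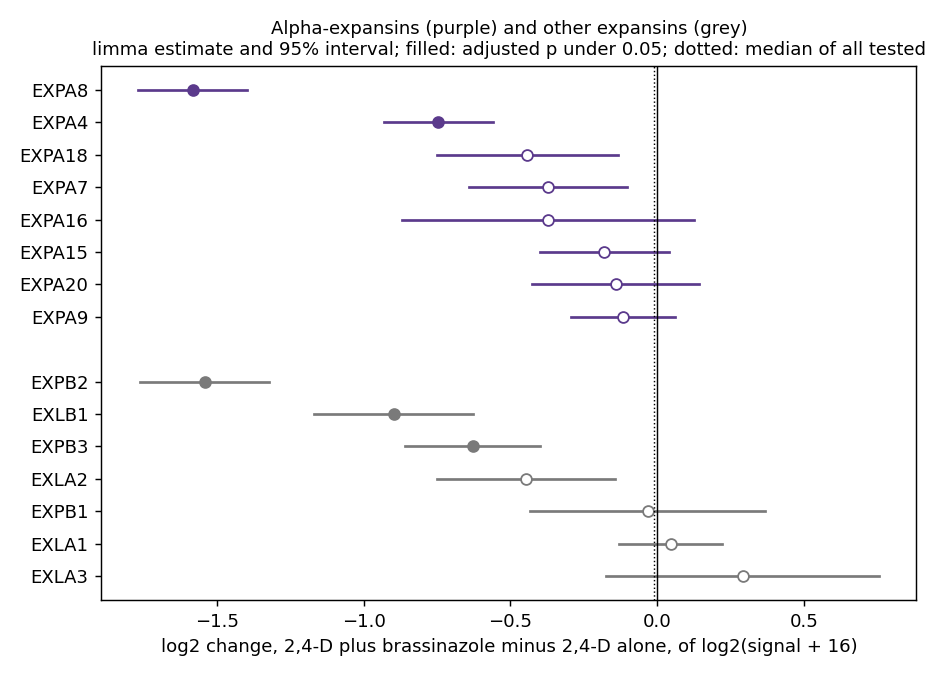
Log2 change of the 8 tested alpha-expansins (purple) and the 7 tested other expansins (grey), brassinazole minus auxin, with the limma 95% interval; filled points passed the adjusted p of 0.05, and the dotted line is the median of all probe sets tested. All 8 alpha-expansins lie left of 0, with EXPA8 at -1.58 and EXPA4 at -0.75 passing; EXPB2 at -1.54 lies near EXPA8.

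The other members gave smaller or less certain differences. EXPA9 had signals of 713, 670.3 and 701 with brassinazole, against 770.1, 738 and 758 with 2,4-D alone. Its groups did not overlap and its replicates were tight (coefficients of variation of 3.20% with brassinazole and 2.18% with 2,4-D alone), yet the difference of the means was small. Its log2 change was -0.12 ± 0.082 (SE; limma adjusted p = 0.449), and the 95% interval runs from a fall of 1.23-fold to a slight rise (0.059 on the log2 scale). A fall of the size seen for EXPA4 or EXPA8 thus lies outside the interval of EXPA9.

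EXPA15 had signals of 321, 281 and 283 with brassinazole, against 313, 342 and 353 with 2,4-D alone, so that brassinazole 1 lay above auxin 1. Its log2 change was -0.18 ± 0.102 (SE; limma adjusted p = 0.333). EXPA20 had signals of 123.2, 130.3 and 109 with brassinazole, against 143, 138 and 123.3 with 2,4-D alone, and the groups overlapped through auxin 3. Its log2 change was -0.14 ± 0.132 (SE; limma adjusted p = 0.594). Falls larger than 1.32-fold for EXPA15 and 1.34-fold for EXPA20 lie outside their 95% intervals.

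EXPA16 passed the filter narrowly, with a mean level equal to a signal of 41.2 where the limit was 34.2. It had signals of 23.2, 36.6 and 45.6 with brassinazole, against 38.6, 60.3 and 50.1 with 2,4-D alone. The groups overlapped. Its log2 change was -0.37 ± 0.232 (SE; limma adjusted p = 0.385), and its 95% interval spans a fall of 1.83-fold and a rise of 0.13 on the log2 scale. The value was -0.19 without brassinazole 1, -0.65 without auxin 1 and brassinazole 3, and -0.20 with a pseudocount of 64. Near its level only 8 of 1000 probe sets were called lower, none by less than 0.90 on the log2 scale.

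EXPA21 and EXPA24 were not tested. EXPA21 had signals of 5.50, 18.8 and 5.38 with brassinazole, against 1.90, 2.81 and 4.86 with 2,4-D alone. All 3 brassinazole values lay above the auxin values, but every one of the 6 was below the lowest level tested. EXPA24 had signals of 12.2, 3.80 and 1.89 with brassinazole, against 3.01, 8.72 and 1.88 with 2,4-D alone, with full overlap. No direction is read from these signals. In the RefSeq gene table, EXPA21 and EXPA24 are the outer genes of a run of 6 neighbouring alpha-expansin genes, from AT5G39260 to AT5G39310. The other 4 genes of this run are not among the members described here.

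Over the family, 2 of the 8 tested members were called lower with brassinazole and 0 higher. Of all tested probe sets, 7.52% were called, 4.08% lower and 3.44% higher; with each array centred on its median, 609 were called lower and 676 higher, which turns this balance, while the same number of members, 2, was called lower. At an unadjusted limma p under 0.05, 4 members were lower and 0 higher, where 11.4% of all tested probe sets were lower and 10.5% higher. The log2 change was negative in 8 of 8 tested members, against 52.7% of all tested probe sets. Their median change was -0.37, against -0.01 over all tested. In 5 of the 8 members the 3 brassinazole values lay below the 3 auxin values (14.3% of all tested probe sets), and in 0 members they lay above (12.9%). The members without overlap were EXPA4, EXPA7, EXPA8, EXPA9 and EXPA18.

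**Figure D3:**
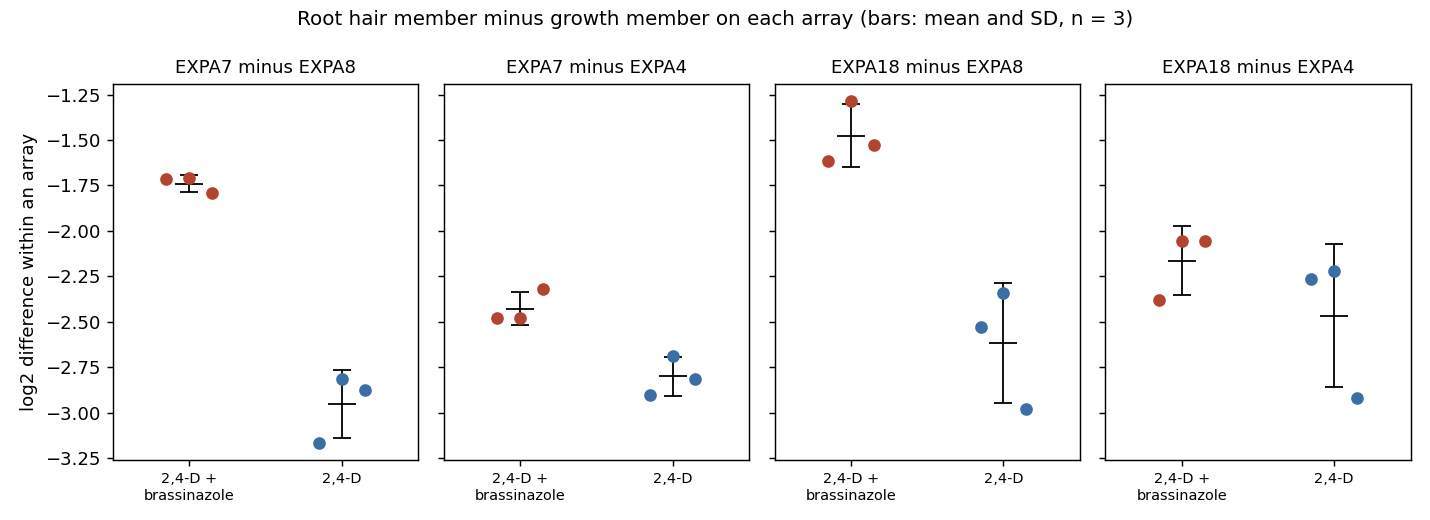
Log2 difference between a root hair member and a growth member on each array (y axis, log2 units), for the 3 arrays with 2,4-D plus brassinazole (red) and the 3 with 2,4-D alone (blue); bars are the mean and SD. The groups are separate for EXPA7 minus EXPA8, EXPA7 minus EXPA4 and EXPA18 minus EXPA8, and overlap for EXPA18 minus EXPA4. The growth members, EXPA8 and EXPA4, were picked with their changes known.

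The root hair members were set against EXPA8 and EXPA4 by taking, on each array, the log2 value of one minus that of the other. EXPA8 and EXPA4 are the 2 members called lower and were picked with their changes known, so the direction of these differences was fixed by the choice, and they are given as a description with no test. A shift between the groups then measures how far the 2 changes differ; the height of the difference itself has no meaning, since it joins 2 probe sets. For EXPA7 minus EXPA8 the difference was -1.74 ± 0.047 with brassinazole and -2.95 ± 0.188 with 2,4-D alone (SD, n = 3 each). The change of EXPA8 was thus the larger by 1.21 log2 units, a factor of 2.31. For EXPA18 minus EXPA8 the difference was -1.48 ± 0.171 with brassinazole and -2.62 ± 0.329 with 2,4-D alone, a shift of 1.14 log2 units. In both pairs the 3 brassinazole arrays lay above the 3 auxin arrays. The 95% intervals from limma for EXPA7 and EXPA18 ended at falls of 1.56-fold and 1.68-fold, below the 2.64-fold at which that of EXPA8 began. Since EXPA8 was picked with its change known, this gap is a description too and no test.

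Against EXPA4 the shifts were smaller. EXPA7 minus EXPA4 was -2.43 ± 0.092 with brassinazole and -2.80 ± 0.106 with 2,4-D alone (SD, n = 3 each), a shift of 0.37 log2 units with no overlap of the groups. EXPA18 minus EXPA4 was -2.16 ± 0.189 with brassinazole and -2.47 ± 0.392 with 2,4-D alone, a shift of 0.30 log2 units. Here the groups overlapped, and without auxin 3 the shift was 0.08. The limma 95% intervals of the falls of EXPA7 and EXPA18 overlap with that of EXPA4, which began at 1.47-fold. Against EXPA9 (-0.12), EXPA15 (-0.18) and EXPA20 (-0.14) the order turns: their changes were smaller than those of EXPA7 (-0.37) and EXPA18 (-0.44). The 95% intervals of these 5 genes overlap. The order does not turn against EXPA16, whose change of -0.37 was level with that of EXPA7. Its 95% interval was wide, from -0.87 to 0.13 on the log2 scale.

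Of the root hair list, which holds 41 loci without the expansins, 3 had a single-gene probe set and 2 were tested. Of these 2, 1 was called lower and 0 higher. Over all tested probe sets, 4.08% were called lower and 3.44% higher, and 2 genes are too few to set a share against these. XTH26, an enzyme of the root hair zone that cuts and rejoins xyloglucan, had signals of 51.6, 34.2 and 37.3 with brassinazole, against 73.6, 99.1 and 97.5 with 2,4-D alone. The groups did not overlap, and the log2 change was -0.90 ± 0.191 (SE; limma adjusted p = 0.00983), a call that was lost without auxin 2 (log2 change -0.83, adjusted p = 0.0518) or auxin 3 (-0.85, 0.0533). With a pseudocount of 64 the change was -0.55 (adjusted p = 0.00877). RSL3, a bHLH factor of hair growth, lay below the level tested, at 1.60 to 22.3 with brassinazole and 1.88 to 8.47 with 2,4-D alone. The other 38 loci had no entry, so these values do not describe root hair transcripts as a group.

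Among the other expansins, 7 of the 10 loci were tested, of which 3 were called lower and 0 higher. Of all tested probe sets, 4.08% were called lower and 3.44% higher. EXPB2, a beta-expansin, was at 177 ± 16.9 with brassinazole and 545 ± 16.6 with 2,4-D alone (SD, n = 3 each), a log2 change of -1.54. EXLB1, an expansin-like gene, was at 555 ± 107 with brassinazole and 1042 ± 126 with 2,4-D alone, a log2 change of -0.90 (limma adjusted p = 0.000544). EXPB3 was the other member called, with a log2 change of -0.63 (limma adjusted p = 0.00237). The 4 members not called had log2 changes of -0.45 to 0.29.

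The genes whose signals ran most like that of EXPA8 over the 6 arrays were sought among 9414 other single-gene probe sets. The 3 with the highest Pearson r on the log2 scale were EXPB2 (r = 0.9994), AT1G62770 (0.9979) and AT1G67750 (0.9973). AT1G67750 had a mean signal of 1006 ± 35.0 with brassinazole and 2393 ± 53.0 with 2,4-D alone (SD, n = 3 each), and AT1G62770 one of 320 ± 19.1 with brassinazole and 811 ± 62.2 with 2,4-D alone. All 3 had non-overlapping groups and log2 changes of -1.24 to -1.54. For the mean log2 profile of EXPA7 and EXPA18 the 3 highest were AT4G00750 (r = 0.990), AT2G37150 (0.989) and AT4G35320 (0.983), among 9413 probe sets. Their log2 changes were -0.28, -0.18 and -0.47, and of these only that of AT4G35320 passed (limma adjusted p = 0.0380). These correlations describe 6 arrays that all genes share, and the gap between the groups enters each of them.

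**Figure D4:**
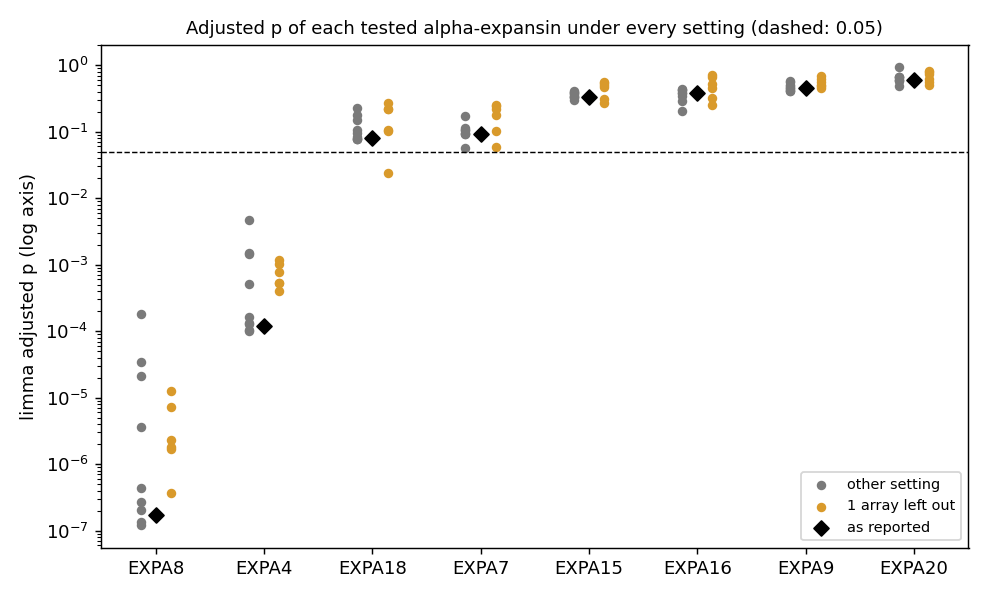
Limma adjusted p (log axis) of each tested alpha-expansin as reported (black), with 1 array left out (orange) and under the other settings tried (grey); the dashed line is 0.05. EXPA8 and EXPA4 stay below the line at every point, EXPA18 crosses it at 1 point, and the other 5 members stay above it.

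The calls for EXPA8 and EXPA4 held under all 15 alternative settings. The log2 change of EXPA8 ranged from -1.65 to -1.51 with limma adjusted p of at most 0.000180, and that of EXPA4 from -0.80 to -0.68 with adjusted p of at most 0.00469. EXPA7 passed in 0 of the 14 settings that kept it, with adjusted p of 0.0577 to 0.254. EXPA18 passed in 1 of 15. Auxin 1 deviated in the 25S rRNA control and brassinazole 3 on the second principal component. Without both arrays, the log2 changes of EXPA8 and EXPA4 were -1.65 and -0.79. Those of EXPA7 and EXPA18 were then -0.52 and -0.43 (limma adjusted p = 0.0577 and 0.226).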

How the data were processed

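The deposited values are intensities on a linear scale, 1 signal per probe set and array, and per the submitters' processing notes MAS5 was used. Its version, detection calls and any filter: not given in the sources used here. All 6 arrays had the same mean signal, 499.8, over their middle 96% of values, so they had been scaled to each other and a general shift of transcripts is hidden. The number of arrays limits the precision.

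The sample titles gave the group and replicate number. The 64 control probe sets were left out. Names came from the platform annotation, which gave 1 gene for 13513 probe sets, several for 503 and no entry for 8794; 13436 of the 13513 matched the RefSeq table of TAIR10.1, used for names and gene order only. The comparison used limma 3.58.1 (R 4.3.3) on log2(value + 16), with lmFit and a trended eBayes, two-sided. The scale understates changes of dim probe sets. Steps were tested on simulated data.

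Every member was named. The root hair and other expansin lists gave values for members past the threshold. The likeness search took 3 genes each for EXPA8 and for the mean of EXPA7 and EXPA18. RSL3, outside this rule, was named after its values were seen, and 1 tested member of the root hair list is not reported here. Members, lists and pairs were chosen with earlier results of these data known. Permutation tests of the differences between members were planned and run. Their p-values are not given, since the pairs hold the members known to change. With 3 arrays against 3, the smallest p that such a test can give is 0.1. Promoter motifs were not analysed here.

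Same-numbered arrays of the groups did not deviate together (correlations of 0.037, 0.063 and 0.049 over tested probe sets), so the numbers are not taken to pair them. Alternatives changed the pseudocount, the filter, the variance trend, the scaling, the arrays used and the replicate block.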

Additional observations from a re-analysis of the deposited data

How the results depend on the processing

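Over all probe sets, the counts called higher and lower, 586 and 696 as reported, became 316 and 439 when eBayes used no variance trend. They became 355 and 460 without auxin 1 and brassinazole 3, chosen after the control probe sets and the second principal component were seen. With arrays centred on their median they were 676 and 609, which turns the balance. With 1 array left out they ranged from 338 to 527 higher and 452 to 630 lower. The counts of alpha-expansins called lower stayed at 2 except without auxin 3, where it was 3. The count of root hair genes called lower, 1, became 0 with a filter at the 50th percentile, which leaves XTH26 out, and ranged from 0 to 1 with 1 array left out (0 without auxin 2 or auxin 3). Each of the 4 shifts between EXPA7 or EXPA18 and EXPA8 or EXPA4 kept its sign under its 11 alternatives, from 1.10 to 1.28 for EXPA7 minus EXPA8 and from 0.08 to 0.43 for EXPA18 minus EXPA4. Their direction was fixed by the choice of EXPA8 and EXPA4, so the kept sign is no support. EXPB1, not called at -0.03, ranged from -0.17 to 0.14 with 1 array left out, and was above 0 without brassinazole 2 (0.14), auxin 2 (0.05) or auxin 3 (0.02). With no filter, EXPA21 and EXPA24 had log2 changes of 0.40 and 0.08 (limma adjusted p = 0.428 and 0.908). A filter at the 50th percentile leaves EXPA7, EXPA16 and EXPA20 untested. With the replicate number as a block (replicate block), 604 probe sets were called higher and 676 lower, and the same 2 alpha-expansins were called, with adjusted p of 3.57e-06 for EXPA8 and 0.000508 for EXPA4; EXPA7 and EXPA18 were at 0.0960 and 0.0788. The causes of these shifts were not tested. Signals near or under 34.2 carry little information on change.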
